A study of Drosophila melanogaster with 13 samples.

Results

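The cytochrome P450 genes of *Drosophila melanogaster* were followed in RNA-seq libraries of whole first instar male larvae that carried both, either or neither of the roX RNAs. Members were all genes of the counts whose symbol starts with Cyp and a number, matched through the Ensembl annotation BDGP6.54, from which the positions given are taken. The rule found 86 of 17476 genes in the counts, of which 82 reached 20 counts summed over the 13 libraries, out of 13975 genes that did. Of the 86, 84 were cytochrome P450 genes, 80 of them past that filter, and the other 2, *Cyp1* and *Cyp40*, encode cyclophilins and were set apart. An annotated member, *Cyp6a21*, had no line in the counts and was not analysed here.

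Cytochromes P450 are haem enzymes that insert an oxygen atom into small lipophilic molecules. Insect P450 genes fall into a few clans: the CYP3 and CYP4 clans hold most enzymes that break down plant toxins and insecticides together with enzymes of lipid metabolism, while the CYP2 and mitochondrial clans include enzymes that make or inactivate the moulting hormone ecdysone. The microsomal enzymes take electrons from cytochrome P450 reductase, and the mitochondrial ones from a ferredoxin. In larvae the detoxifying members are best known from the midgut, the fat body and the Malpighian tubules. *roX1* and *roX2* are long noncoding RNAs of the male-specific lethal complex, which raises transcription of the single male X chromosome.

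Each library was made from polyadenylated RNA of 20 pooled larvae. All groups carry y[1]. Wildtype larvae (3 libraries, replicates 1, 3 and 4) were y[1] w[1118]. The *roX1* mutant (4 libraries, replicates 1 to 4) has the excision allele roX1[ex6] on that same y[1] w[1118] background. The *roX2* mutant (3 libraries, replicates 2 to 4) has a CRISPR deletion, roX2[9-4], together with cho[2], v[1] and y[1] but without w[1118]. In the *roX1 roX2* mutant (3 libraries, replicates 2 to 4) both deletions, [ex6] and [9-4], sit on y[1] w[1118], by the study's methods also with v[1], and its mothers carried the balancer FM7i. The larvae were sons of females of these strains and males with a GFP-marked FM7i balancer and were sorted as larvae without GFP, so their autosomes were heterozygous. The groups are not isogenic, so a deletion and the rest of the strain it came in cannot be told apart here. Neither the labels nor the study's methods say that replicates of a genotype came from separate crosses, so p-values measure the spread between these libraries.

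The libraries held 45620194 to 83954893 counts on genes. *roX1* RNA stood at 975 to 1903 CPM (counts per 1000000 counts on genes) where the gene was intact and at 0.742 to 4.74 CPM in the 7 libraries of *roX1* mutants, and *roX2* RNA at 18 to 35.3 CPM against at most 0.0478 CPM. The glue and storage proteins of the third instar summed to at most 2.5 CPM and the yolk proteins to at most 3.07 CPM. In the fat body list *apolpp* and *FASN1* were abundant, at 685 CPM or more in every library, while *Adh*, *Fbp1* and *Lsp2* were at or near 0. On the first principal component of the autosomal genes, without the P450 genes, 4 libraries stood apart. They were replicate 1 of wildtype, replicate 4 of the *roX2* mutant and replicates 1 and 2 of the *roX1* mutant. In these libraries the Osiris genes, which are expressed in epidermis that lays down cuticle, summed to 891 to 7989 CPM, against 21.7 to 29.3 CPM in the other 9, and they are called Osiris-high libraries here. The Tweedle genes, a second list for such epidermis, did not split wildtype in this way, at 2600, 2646 and 2834 CPM in replicates 1, 3 and 4. Their sum was 12879 and 7916 CPM in *roX1* mutant replicates 1 and 2, against 1729 and 1588 in replicates 3 and 4. *roX2* mutant replicate 4 had 4095 CPM, against 1174 and 2264 in replicates 2 and 3. Wildtype replicate 1 also had the highest sum of 6 midgut enzymes, 6111 CPM against 1267 and 1459 CPM in the other wildtype libraries.

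Nearly the whole family was detected. Between 79 and 81 of the 84 P450 genes had at least 1 count in each library, and 57 to 63 reached 1 TPM (transcripts per 1000000, a level that takes exon length into account). Of the 4 members under 20 counts, 3 were listed at 0 in every library: *Cyp4d2*, *Cyp4d14* and *Cyp9c1*. Annotated antisense RNAs cover 98.7%, 96.2% and 98.2% of the exon bases of these genes. Where strand is not used, the counter gives a read that lies on more than one gene to none, so a value of 0 here does not show that the gene is silent. *Cyp4ae1*, with 88.3% of its exon bases under an antisense RNA, kept 136 counts in all. *Cyp12d1-d* and *Cyp12d1-p* are near-identical copies, and reads that map to both were not counted, so their split is uncertain. These low members were chosen after their values were seen.

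In wildtype larvae the family was led by *Cyp4g1*, the oenocyte enzyme that makes the hydrocarbons of the cuticle, followed by *Cyp6a2*, which is induced by foreign chemicals and linked to insecticide resistance. *Cyp4g1* stood at 138, 146 and 141 TPM in wildtype replicates 1, 3 and 4, the steadiest value among the leading genes. *Cyp6a2* stood at 219, 76.7 and 86.1 TPM, and *Cyp6d5* at 151, 50.9 and 52.5 TPM, so that both lay above *Cyp4g1* in replicate 1 alone. The rest of the leading 10, in falling order of the mean, were *Cyp4c3* with 93.8 ± 41.6 TPM (SD, n = 3), *Cyp9f2* with 85.9 ± 24.1, *Cyp4e2* with 75.2 ± 14.9, *Cyp4p1* with 66.4 ± 7.5, *Cyp6a17* with 62.7 ± 7.0, *Cyp6a8*, another inducible gene, with 62.6 ± 10, and *Cyp6a9* with 55.4 ± 3.3, while *Cyp6d5* had a mean of 84.9 ± 57.5 between *Cyp9f2* and *Cyp4e2*. Each of these genes overlapped with the next in its wildtype range, so no neighbours in this order differed beyond their spread. Ranked by CPM in place of TPM, the same 10 genes led.

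**Figure D1:**
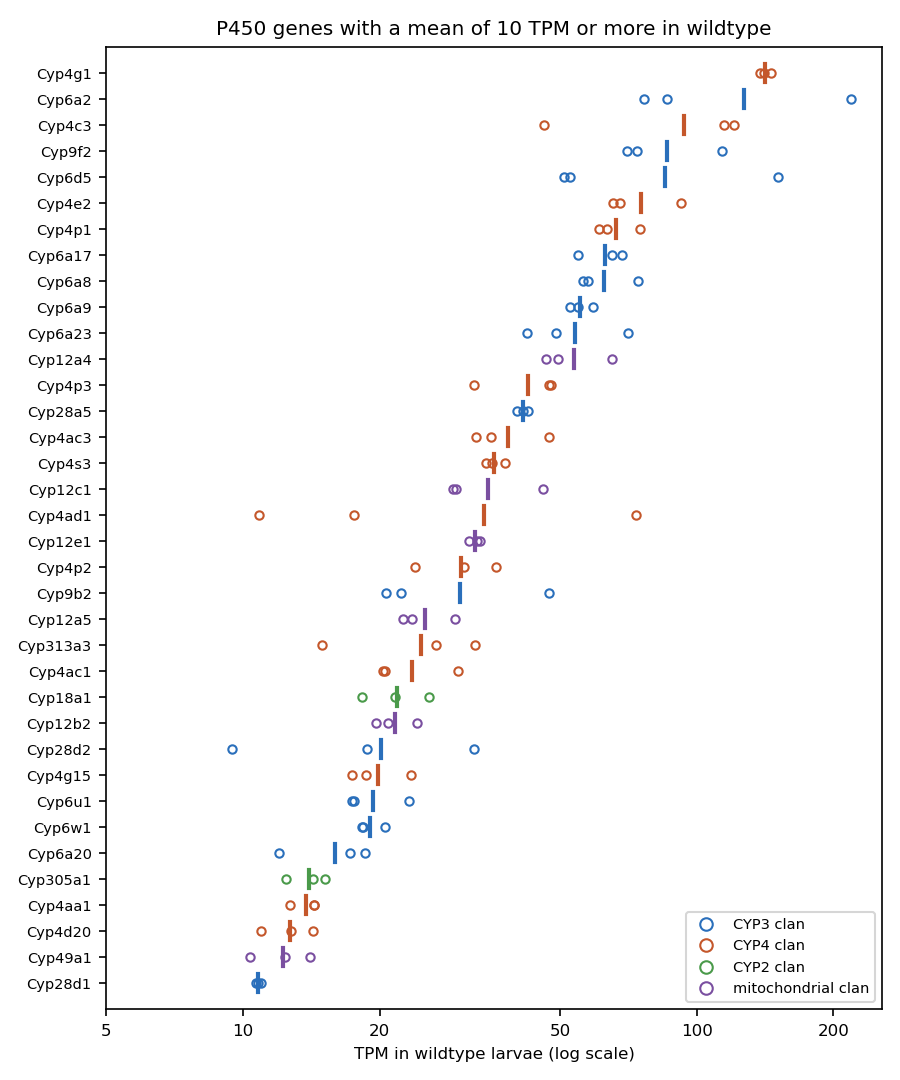
TPM (log scale) of the 36 P450 genes with a wildtype mean of at least 10 TPM. Open circles are the 3 wildtype libraries, vertical bars their mean, and colours the clan. *Cyp4g1*, *Cyp6a2* and *Cyp4c3* lead, and the circles of *Cyp6a2*, *Cyp6d5* and *Cyp4ad1* lie far apart because 1 of the 3 libraries is high.

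The levels spanned a wide range. Of the 84 genes, 12 had a wildtype mean of at least 50 TPM, 24 lay between 10 and 50, 23 between 1 and 10, and 25 below 1. The CYP3 clan took 45.7% ± 6.4 (SD, n = 3) of the family's TPM in wildtype with 39 genes, and the CYP4 clan 40.8% ± 6.1 with 32. The mitochondrial clan took 11.3% ± 0.25 with 9 genes, 6 of them at 10 TPM or more, and the CYP2 clan 2.27% ± 0.21 with 4. The leading 10 held 6 genes of the CYP3 clan and 4 of the CYP4 clan, and only *Cyp4g1* among them is X-linked. The 10 together made up 43.7% to 51.6% of the family's TPM in the 13 libraries.

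The mean summed level of the family in the mutants lay at 0.878 to 1.08 times that of wildtype. In whole larvae, fewer cells of a type and less RNA per cell cannot be told apart. The sum was 1986, 1524 and 1519 TPM in wildtype replicates 1, 3 and 4. The 4 *roX1* mutant libraries ranged from 1726 to 1893 TPM, those of the *roX2* mutant from 1364 to 1544 and those of the *roX1 roX2* mutant from 1660 to 1843. The range of wildtype took in all *roX1* and *roX1 roX2* mutant libraries and all but 2 of the *roX2* mutant. For the *roX1* and *roX1 roX2* mutants this rests on wildtype replicate 1, an Osiris-high library. Wildtype replicates 3 and 4 lay below every library of these 2 mutants. Relative to the wildtype mean, the mean of the *roX1* mutant was 1.08, that of the *roX2* mutant 0.878 and that of the *roX1 roX2* mutant 1.06. Genes of the mitochondrial genome took 24.0% of the counts in *roX2* mutant replicate 2, the library with the lowest sum, against 11.3% to 15.0% elsewhere, and with those genes left out of the TPM the *roX2* mutant stood at 0.934 of wildtype.

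Against wildtype, 14 of the 80 P450 genes passed the test in at least 1 mutant and 66 in none. In the *roX1* mutant 5 rose and 3 fell, where 0.751% of all genes tested rose and 0.572% fell. In the *roX2* mutant 3 rose, against 0.165% of all genes, and none fell, against 0.186%, with 13 of the 80 at an unadjusted p under 0.05 by edgeR and 4 falls by DESeq2. With both roX genes deleted 7 rose and 3 fell, where 3.41% and 5.67% of all genes did. These rises were 6.25%, 3.75% and 8.75% of the family, and the falls 3.75%, 0% and 3.75%. The median log2 fold change of the 80 genes was 0.23, -0.04 and -0.21 in the 3 mutants, beside 0.02, 0.01 and -0.02 over all genes. The 3 comparisons share the wildtype libraries, so a gene that is high or low in wildtype enters all of them.

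By clan, the CYP4 genes held most of the rises, 4 of 29 tested in the *roX1* mutant, 2 on loss of *roX2* and again 4 when both roX genes were deleted, with 1, 0 and 0 falls. The 38 CYP3 genes had 1 rise in each mutant and 1, 0 and 3 falls, and median log2 fold changes of 0.20, -0.25 and -0.27. The 2 negative medians depended on the libraries used. With only the 9 libraries of low Osiris levels, which leave out wildtype replicate 1, more CYP3 genes lay above 0 than below in the *roX1 roX2* mutant. In the *roX2* mutant they were then evenly split. Among 9 genes of the mitochondrial clan 2 rose in the *roX1 roX2* mutant and 1 fell in the *roX1* mutant. The 2 that rose are the near-identical copies of *Cyp12d1*, and neither rise passed with the replicate block in edgeR (adjusted p = 0.0740 and 0.103). Of all genes tested 0.751%, 0.165% and 3.41% rose in the 3 mutants and 0.572%, 0.186% and 5.67% fell. None of the 4 CYP2 genes passed against wildtype, although all 4 had values above 0 in the *roX1* mutant and below 0 in the *roX1 roX2* mutant. In a fit of the 9 libraries with low Osiris levels the values in the *roX1* mutant were of both signs. They were -0.39 for *Cyp304a1*, -0.18 for *Cyp18a1*, 0.11 for *Cyp303a1* and 0.63 for *Cyp305a1*. In the *roX1 roX2* mutant that fit gave -0.82 to -0.25.

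*Cyp4d1* (FBgn0005670, CYP4 clan, X:2159145-2162180) changed most. It had 1.94, 1.69 and 1.56 CPM in the wildtype libraries, and the *roX1* mutant 30, 26.4, 36.5 and 30. The *roX2* mutant had 19.9, 16.8 and 21.1 CPM, and the *roX1 roX2* mutant 14.4, 10.3 and 17.3. Every mutant library lay at over 5 times the highest wildtype library, and in each genotype the Osiris-high libraries differed from the others by less than 1.5 times. The log2 fold changes were 4.15 ± 0.21 (SE, adjusted p = 4.84e-06), 3.47 ± 0.21 (adjusted p = 1.59e-05) and 3.01 ± 0.21 (adjusted p = 2.57e-05). Between mutants, the *roX1 roX2* mutant was lower than the *roX1* mutant (log2 difference -1.13 ± 0.18, adjusted p = 0.00318), and its difference of -0.46 ± 0.19 from the *roX2* mutant did not pass (adjusted p = 0.169). The gene stayed called in all 3 comparisons under all 23 alternatives.

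*Cyp4p2* and *Cyp28a5* were the other genes that rose in all 3 mutants. *Cyp4p2* (FBgn0033395, CYP4 clan, 2R:9237512-9239831) stood at 25.8, 34.7 and 32.4 CPM in wildtype and at 108, 107, 120 and 133 in the *roX1* mutant. The *roX2* mutant had 56.6, 58.0 and 54.1 CPM, and the *roX1 roX2* mutant 101, 89.7 and 78.0. No mutant group overlapped with wildtype or with another mutant. The log2 fold changes were 1.92 ± 0.14 (adjusted p = 4.87e-05), 0.86 ± 0.14 (adjusted p = 0.0271) and 1.53 ± 0.14 (adjusted p = 0.000286), and the *roX2* mutant differed from the *roX1* mutant (adjusted p = 0.00335) and from the *roX1 roX2* mutant (adjusted p = 0.0181, lost under 4 of 23 alternatives). The call in the *roX2* mutant held under 13 of 23 alternatives; it was lost with only the genotypes compared in the fit (adjusted p = 0.386), with the replicate block (0.106), in the 9 libraries with low Osiris levels (0.0773), and without wildtype replicate 1, 3 or 4 (adjusted p = 0.0814, 0.0619 and 0.0833), *roX2* mutant replicate 2 or 3 (0.0758 and 0.0551) or *roX1 roX2* mutant replicate 2 or 3 (0.0594 and 0.0558). Its neighbours on 2R, *Cyp4p1* and *Cyp4p3*, passed in no comparison with wildtype, with log2 fold changes of 0.15 and 0.56 in the *roX1* mutant and -0.32 and -0.38 in the *roX1 roX2* mutant.

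*Cyp28a5* (FBgn0028940, CYP3 clan, 2L:13977302-13979569) belongs to a family whose members in the cactus-feeding *Drosophila mettleri* respond to plant alkaloids. It was even between wildtype libraries, at 42.9, 40.7 and 43.4 CPM in wildtype. The *roX1* mutant had 60.3, 62.2, 69.1 and 69.0 CPM, the *roX2* mutant 84.8, 79.0 and 85.7, and the *roX1 roX2* mutant 69.5, 70.3 and 75.8. None of them overlapped with wildtype, and the *roX2* mutant was the highest. The log2 fold changes were 0.62 ± 0.09 (adjusted p = 0.00785), 0.97 ± 0.10 (adjusted p = 0.000712) and 0.76 ± 0.10 (adjusted p = 0.00158). No difference between mutants passed the test for this gene, the closest being -0.35 ± 0.09 between the *roX1* and the *roX2* mutant (adjusted p = 0.0631). Without wildtype replicate 3 the rise in the *roX1* mutant was not called (adjusted p = 0.0533), and with only the genotypes compared in the fit that in the *roX2* mutant was not (adjusted p = 0.0775).

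**Figure D2:**
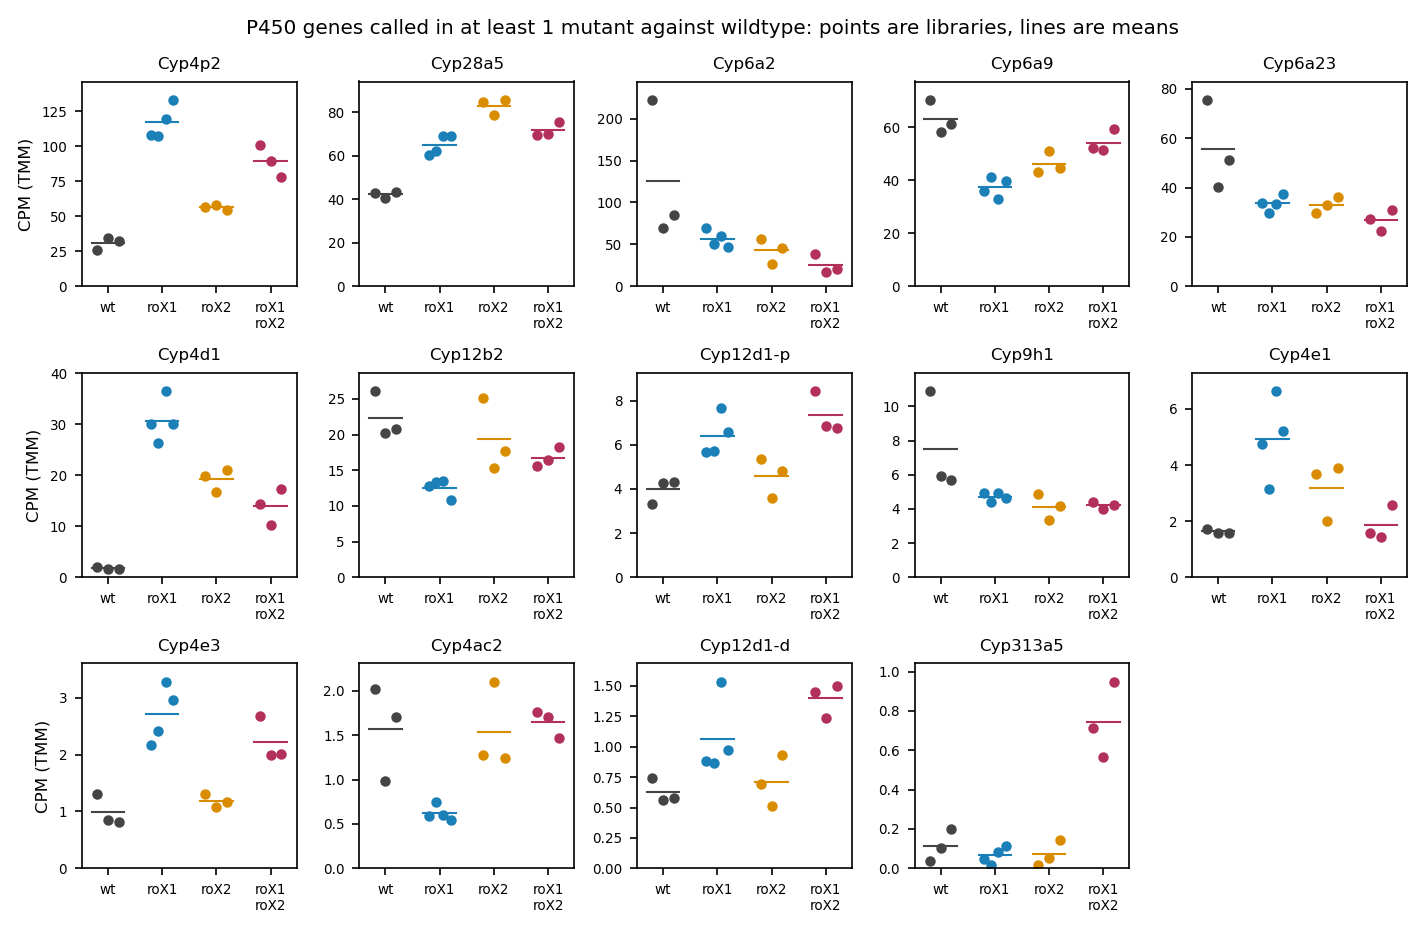
CPM of the 14 P450 genes called in at least 1 mutant, one panel a gene with an axis from 0. Points are libraries and lines the mean of each genotype (3 or 4 libraries). *Cyp4d1*, *Cyp4p2* and *Cyp28a5* are higher in all mutant libraries than in any wildtype library, and *Cyp313a5* is high only in the 3 libraries of the *roX1 roX2* mutant.

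Further genes of the CYP4 clan rose in the *roX1* mutant. *Cyp4e3* (2L:9747839-9750071) had 2.17, 2.42, 3.28 and 2.96 CPM there and, in the *roX1 roX2* mutant, 2.67, 2.00 and 2.01. Wildtype had 1.30, 0.85 and 0.81 CPM, and the *roX2* mutant 1.31, 1.08 and 1.16. The groups with roX1[ex6] lay above both others. It rose by log2 values of 1.45 ± 0.24 (adjusted p = 0.0139) and 1.17 ± 0.25 (adjusted p = 0.0148), and both mutants also differed from the *roX2* mutant (adjusted p = 0.0288 and 0.0444). These last calls were lost under 7 and 16 of 23 alternatives (adjusted p of 0.0595 to 0.0957 and of 0.0513 to 0.145). *Cyp4e1* (2R:8447451-8449745), at 1.73, 1.59 and 1.59 CPM in wildtype and 4.76, 3.14, 6.64 and 5.22 in the *roX1* mutant, without overlap, rose by 1.59 ± 0.32 (adjusted p = 0.0372). With the replicate number as a block, *Cyp4e1* no longer passed in the *roX1* mutant (adjusted p = 0.0536, or 0.0609 with only the genotypes compared), nor did *Cyp4e3* in the *roX1 roX2* mutant (adjusted p = 0.0623). Both rises of *Cyp4e3* were lost without wildtype replicate 4 (adjusted p = 0.0778 and 0.0646), the first also without wildtype replicate 3 (0.0702) and with only the genotypes compared (0.0718) and the second without *roX1 roX2* mutant replicate 2 (0.0666), and that of *Cyp4e1* without any of 8 libraries (adjusted p of 0.0539 to 0.146), among them all of wildtype. *Cyp4e2*, the abundant neighbour that lies just before *Cyp4e1* on 2R, did not pass, with a log2 fold change of 0.31 ± 0.24 in the *roX1* mutant.

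Falls in the *roX1* mutant were called for 3 genes. *Cyp6a9* (2R:14879356-14881372), in the CYP3 clan, had 70.2, 58.2 and 61.3 CPM in wildtype and 36.0, 41.1, 32.9 and 39.6 in the *roX1* mutant, with no overlap, and fell by 0.76 ± 0.11 on the log2 scale (adjusted p = 0.00983, or 0.0507 with only the genotypes compared). *Cyp12b2* (2R:18754995-18757083), a gene of the mitochondrial clan, had 26.1, 20.2 and 20.8 CPM in wildtype against 12.7, 13.3, 13.4 and 10.8 and fell by 0.83 ± 0.17 (adjusted p = 0.0398). *Cyp4ac2* (2L:5266392-5268455) had 2.02, 0.98 and 1.71 CPM against 0.58, 0.75, 0.60 and 0.54 and fell by 1.34 ± 0.28 (adjusted p = 0.0417). The calls of *Cyp12b2* and *Cyp4ac2* were fragile: the replicate block gave adjusted p = 0.0503 and 0.0888, only the genotypes compared 0.0590 and 0.103, and the libraries with low Osiris levels 0.0886 and 0.123, and they were lost without any single *roX1* mutant library (adjusted p of 0.0735 to 0.0898 and 0.0678 to 0.0995) and without 7 and 6 other libraries in turn (0.0512 to 0.105 and 0.0531 to 0.152). *Cyp6a9* and *Cyp4ac2* were higher in the *roX1 roX2* mutant than in the *roX1* mutant (adjusted p = 0.0108 and 0.00765).

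The *roX1 roX2* mutant showed the largest fall, that of *Cyp6a2* (2R:6779749-6781491). The gene had 222, 69.6 and 85.6 CPM in wildtype and 38.3, 17.1 and 20.2 in the *roX1 roX2* mutant, and it ranged from 47.4 to 69.1 in the *roX1* mutant and from 26.1 to 57.0 in the *roX2* mutant. The lowest wildtype library lay above every mutant library, by little in the case of *roX1* mutant replicate 1. It fell by 2.32 ± 0.47 on the log2 scale in the *roX1 roX2* mutant (adjusted p = 0.0124), and the values of -1.15 and -1.55 in the *roX1* and *roX2* mutants did not pass (adjusted p = 0.194 and 0.255). Without the Osiris-high libraries the fall was 1.63 ± 0.37 (adjusted p = 0.0270), and without *roX1 roX2* mutant replicate 3 it was not called (adjusted p = 0.0657). *Cyp6a23* (2R:14875829-14877654) went from 75.4, 40.3 and 51.2 CPM to 27.1, 22.3 and 30.9 and fell by 1.06 ± 0.21 (adjusted p = 0.0117), a call that was lost without the same library (adjusted p = 0.0619). *Cyp9h1* (2R:12840813-12842558) went from 10.9, 5.94 and 5.70 CPM to 4.43, 4.00 and 4.22, just inside the threshold (log2 fold change -0.83 ± 0.24, adjusted p = 0.0499), and stayed called under 9 of 23 alternatives, not with the replicate block (adjusted p = 0.125) and not without wildtype replicate 1 (0.139). In all 3 of these genes wildtype replicate 1, the library with the highest sum of 6 midgut enzymes, was the highest of the 13 libraries. The sum of 6 midgut enzymes was 6111, 1267 and 1459 CPM in wildtype and 2476, 1858 and 4314 in the *roX1 roX2* mutant. Its largest parts in wildtype replicate 1 were *Jon65Aiv* (3502 CPM) and *Jon99Ciii* (2219 CPM), which with *Mal-A1* were highest there. The other enzymes were highest in the *roX1 roX2* mutant, *alphaTry* and *betaTry* in replicate 4 and *Amy-p* in replicate 2. Without wildtype replicate 1 *Cyp6a2* and *Cyp6a23* were still called.

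Both copies of *Cyp12d1*, a mitochondrial P450 linked to insecticide resistance, rose in the *roX1 roX2* mutant. *Cyp12d1-p* (2R:11117225-11121884) went from 3.32, 4.29 and 4.32 CPM in wildtype to 8.43, 6.84 and 6.78 (log2 fold change 0.89 ± 0.20, adjusted p = 0.0183), and *Cyp12d1-d* (2R:11123658-11125647) from 0.74, 0.56 and 0.58 to 1.45, 1.24 and 1.5 (1.15 ± 0.29, adjusted p = 0.0341). Neither difference between the *roX1 roX2* mutant and a single mutant passed, and with the replicate block neither passed against wildtype (adjusted p = 0.0740 and 0.103). Leaving out wildtype replicate 1, or *roX1 roX2* mutant replicate 2 or 3, also ended both calls (adjusted p of 0.0553 to 0.0852 and of 0.0526 to 0.107), and that of *Cyp12d1-d* was lost without any other wildtype or *roX1 roX2* mutant library (0.0873 to 0.115). *Cyp313a5* (3R:12232794-12234684) was nearly silent elsewhere: it had 3, 7 and 12 counts in the wildtype libraries, 1 to 5 in those of the *roX1* mutant, 1 to 7 in those of the *roX2* mutant, and 70, 33 and 63 in those of the *roX1 roX2* mutant, above all others. The log2 fold change was 2.73 ± 0.74 against wildtype (adjusted p = 0.0413), 3.51 ± 0.71 against the *roX1* mutant (adjusted p = 0.00829) and 3.37 ± 0.78 against the *roX2* mutant (adjusted p = 0.0249). The call against wildtype held under 14 of 23 alternatives and was lost without any single wildtype or *roX1 roX2* mutant library and without *roX1* mutant replicate 1 or 3 (adjusted p of 0.0549 to 0.118 in all).

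Among the 10 genes that led in wildtype, only *Cyp6a2* and *Cyp6a9* were called. *Cyp4c3* had 53.1, 124.96 and 129.7 CPM in wildtype, 108 to 144 in the *roX1* mutant and 56.5, 80.0 and 91.9 in the *roX1 roX2* mutant, and wildtype replicate 1 was its lowest library. *Cyp9f2* had 121, 70.4 and 73.2 CPM in wildtype and 55.4 to 69.6 in the *roX1* mutant, below every wildtype library, but the log2 fold change of -0.46 ± 0.19 did not pass (adjusted p = 0.249). *Cyp6d5* had 150, 45.2 and 51.1 CPM in wildtype and 111, 108, 154 and 123 in the *roX1* mutant, so that the groups overlapped only through wildtype replicate 1. *Cyp4e2* overlapped with wildtype in every mutant. *Cyp4p1* did so in the single mutants, while the *roX1 roX2* mutant, at 53.6, 51.0 and 51.3 CPM, lay below wildtype, at 76.3, 55.4 and 63.3, without passing the test (log2 fold change -0.32 ± 0.23, adjusted p = 0.431).

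The number of calls depended on a few libraries. In the *roX1 roX2* mutant 4 genes were called without *roX1 roX2* mutant replicate 3 and 5 without replicate 2. In the *roX1* mutant 4 were called without wildtype replicate 4, and 5 without wildtype replicate 3, *roX1* mutant replicate 3 or 4, or *roX1 roX2* mutant replicate 2 or 3. P-values were adjusted over all genes, and the share of all genes called without each library is not given here. Whether this dependence is particular to the family was not tested. DESeq2 called 19, 8 and 17 genes in the 3 mutants, which included all those called by edgeR, where it called 4.46%, 0.869% and 7.05% of all genes as higher and 2.79%, 0.928% and 11% as lower.

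The *roX1* and *roX1 roX2* mutants differed at more P450 genes than either did from wildtype, and the same held over all genes tested. Directly compared, 5 genes (6.25% of the family) were higher in the *roX1 roX2* mutant and 15 lower, where 6.45% and 11.6% of all genes were. Of these 2 groups only the *roX1* mutant has Osiris-high libraries. The lower ones, 18.8% of the family, included *Cyp4s3*, with 70.8 to 88.6 CPM in the *roX1* mutant and 28.5, 28.5 and 36.2 in the *roX1 roX2* mutant (log2 difference -1.37 ± 0.21, adjusted p = 0.00252), and *Cyp6g1*, *Cyp309a1*, *Cyp304a1* and *Cyp6d5*, described elsewhere. The call of *Cyp6d5* was lost under 9 of 23 alternatives (adjusted p of 0.0537 to 0.140) and that of *Cyp6g1* under 2. In *Cyp4s3*, 20.15% of the exon bases lie under *Rab3-GEF* on the other strand, which had 65666 counts in all. The higher ones included *Cyp6a17*, a gene known for its part in temperature preference, and *Cyp4g15*, known from the nervous system. *Cyp6a17* stood at 57.7, 62.5, 40.2 and 47.2 CPM in the *roX1* mutant, 57.4 to 66.7 in wildtype, 73.7, 84.1 and 96.0 in the *roX1 roX2* mutant and 118, 114 and 108 in the *roX2* mutant. The *roX1* mutant was lower than the *roX2* mutant (log2 difference -1.13 ± 0.15, adjusted p = 0.00423), and the value of 0.85 ± 0.16 for the *roX2* mutant against wildtype did not pass (adjusted p = 0.0608). In that comparison of the single mutants 5 P450 genes were higher in the *roX1* mutant and 2 lower, against 1.25% and 1.02% of all genes, and the *roX1 roX2* mutant had 3 higher and 1 lower than the *roX2* mutant, against 2.23% and 5.44%. These counts moved with single libraries. Of the 20 differences between the *roX1 roX2* and *roX1* mutants, 8 calls were made without *roX1 roX2* mutant replicate 2, 10 without replicate 3 and 13 without replicate 4. Against the *roX2* mutant edgeR made 0 calls without *roX1 roX2* mutant replicate 2 or 3 (10 and 7 at an unadjusted p under 0.05), 2 without replicate 4, and 2 and 1 without *roX2* mutant replicate 2 or 4. Between the single mutants it made 3 to 10, with fewer than 5 without *roX1* mutant replicate 3 or 4 or *roX2* mutant replicate 2 or 4. *Cyp4s3* and *Cyp6a17* stayed called in both comparisons of the *roX1* mutant when any 1 library was left out, as did the difference of *Cyp4d1* between the *roX1 roX2* and *roX1* mutants. DESeq2 made 24, 6 and 17 calls in these 3 comparisons, and the 9 libraries with low Osiris levels gave 24, 6 and 24. The shares of all genes called in these fits, or without single libraries, are not given here. These counts are therefore not set against the rate over all genes.

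X-linked genes as a whole were lower in the *roX1 roX2* mutant, and the X-linked P450 genes were few. Of 14, 12 passed the filter. None of the 12 fell in the *roX1 roX2* mutant, where 27.0% of the 2142 X-linked genes tested did. A log2 fold change below 0 was seen in 8 of the 12 (66.7%), beside 84.2% of all X-linked genes and 61.8% of the 68 autosomal P450 genes. The median of the 12 was -0.32, between -0.55 for all X-linked genes and -0.21 for the autosomal P450 genes. It moved to 0.17 without wildtype replicate 1, and that of the autosomal members to 0.02, so the sign of both rests on that library. In the *roX1* mutant the medians were 0.64 (X-linked) and 0.20 (autosomal), beside -0.04 and 0.03 for all genes of the X and of the major autosome arms. In the *roX2* mutant they were 0.26 and -0.09, beside 0.02 and 0.01.

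The 7 X-linked genes that averaged 50 counts or more varied among themselves. In the *roX1 roX2* mutant the lowest log2 fold change among them was that of *Cyp311a1*, with 2.45, 1.03 and 1.39 CPM in wildtype and 0.58, 0.52 and 1.1 in the mutant. The value of -1.15 ± 0.35 did not pass (adjusted p = 0.0651) and the groups overlapped, while the gene was lower than in the *roX1* and the *roX2* mutant (adjusted p = 0.0283 and 0.0301, lost under 5 and 6 of 23 alternatives). *Cyp4g1* had 190, 180 and 190 CPM in wildtype, 302.8, 253, 331 and 328 in the *roX1* mutant and 303.9, 366 and 241 in the *roX1 roX2* mutant, while the *roX2* mutant was uneven, with 386, 134 and 236. The *roX1* and *roX1 roX2* groups lay above wildtype, but their log2 fold changes, both 0.70, did not pass (adjusted p = 0.242 and 0.170). *Cyp4s3* had a value of -0.61 ± 0.22 in the *roX1 roX2* mutant (adjusted p = 0.102). *Cyp4g15*, with 27.7 to 33.4 CPM in wildtype and 32.2 to 37.9 in the *roX1 roX2* mutant, and *Cyp6v1*, with 6.76 to 7.77 and 6.34 to 8.07, overlapped with wildtype.

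**Figure D3:**
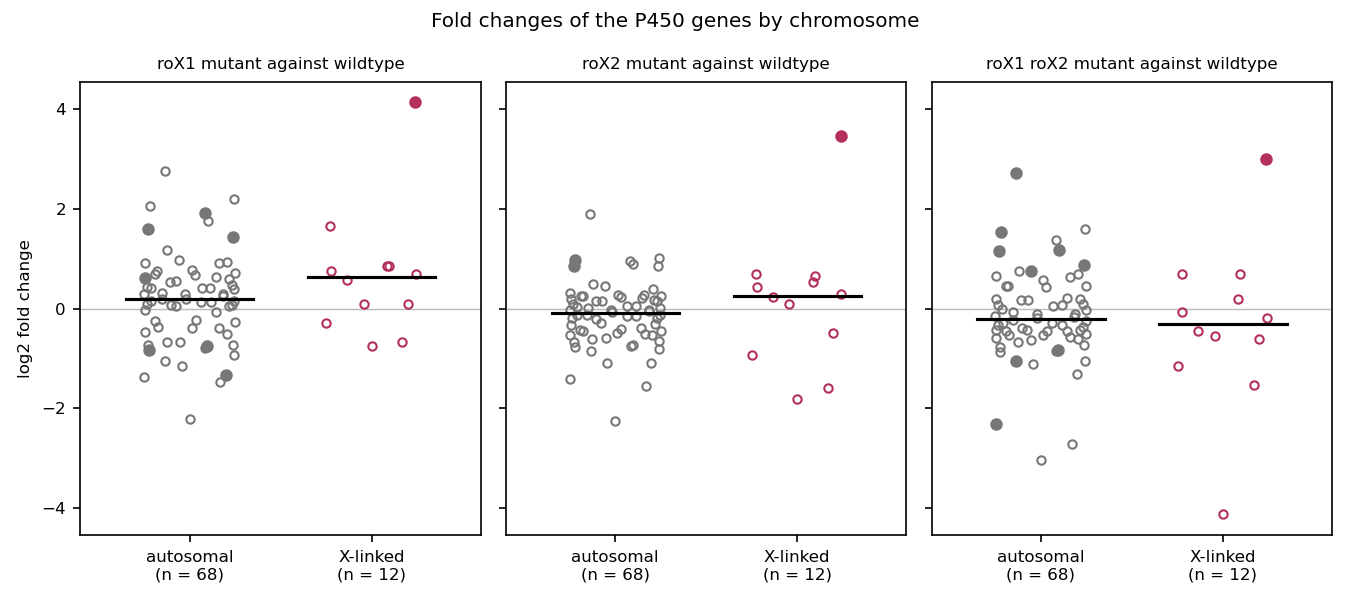
Log2 fold change of the 80 P450 genes in each mutant against wildtype, split into 68 autosomal and 12 X-linked genes. Filled points passed the test (adjusted p under 0.05), open points did not, and black lines are medians, which in the *roX1 roX2* mutant lie at -0.21 and -0.32. The filled X-linked point in each panel is *Cyp4d1*.

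Apart from genotype, many P450 genes varied by library. Of the 64 that averaged 50 counts or more, 19 (29.7%) had their highest level in wildtype replicate 1, where 13.4% of all genes at that depth had theirs. Levels there were over 2 times those of wildtype replicates 3 and 4 for 13 of the 64 (20.3%, beside 9.63% of all genes), and 2 were lower there to the same degree (3.13%, beside 2.39%). The most uneven of these were *Cyp304a1* and *Cyp6g1*, whose levels are given further on, with replicate 1 at 9.2 and 8.88 times the mean of replicates 3 and 4. *Cyp4ad1* followed with 5.46 times, at 84.8 CPM in wildtype replicate 1, 11.2 and 19.9 in replicates 3 and 4, and 8.53 to 24.9 in the 10 mutant libraries. Within the *roX1* mutant, 9 of the 64 (14.1%, beside 9.22%) were over 2 times higher in replicates 1 and 2 than in replicates 3 and 4, and 3 (4.69%, beside 2.24%) were lower to the same degree.

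**Figure D4:**
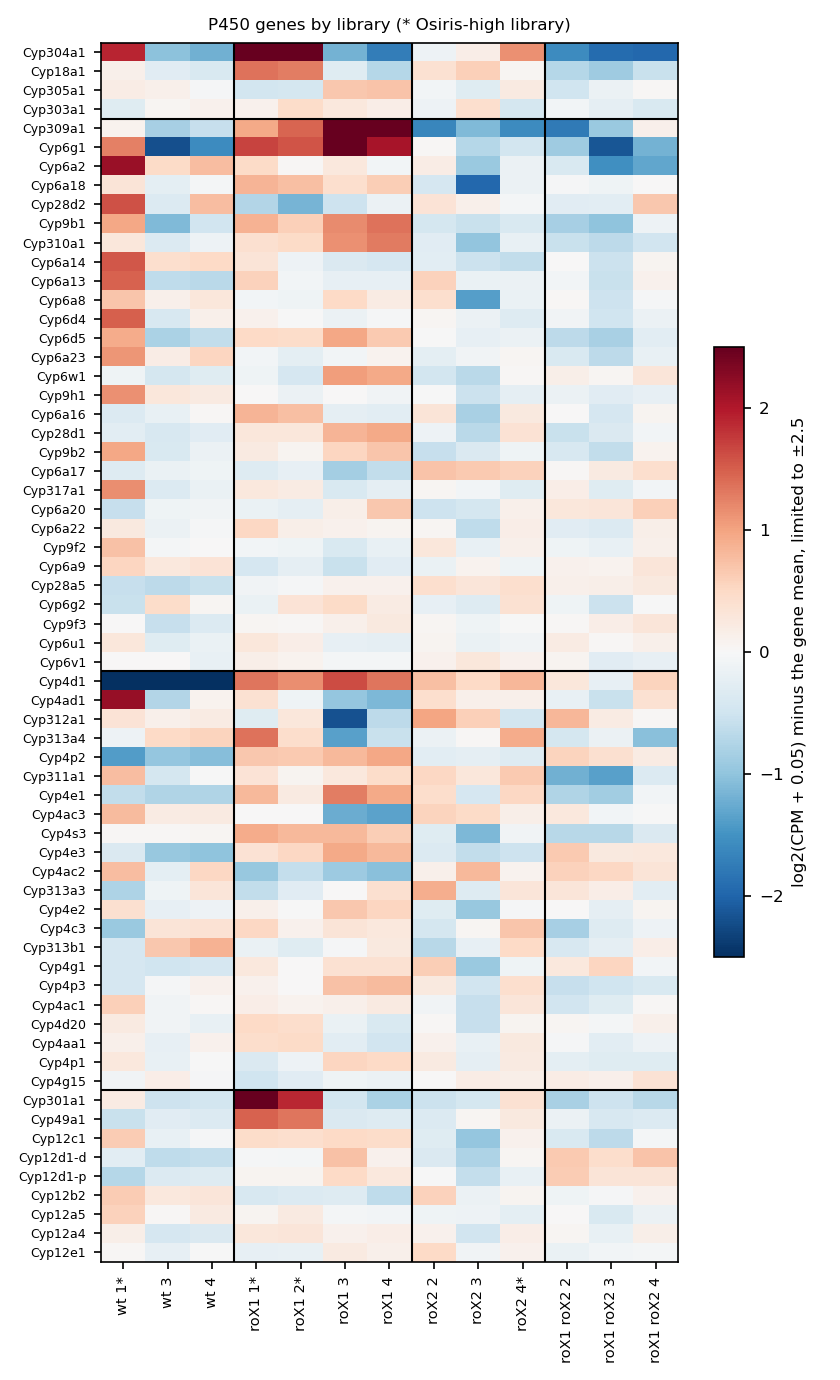
Each of the 64 P450 genes that averaged 50 counts or more (rows, by clan: CYP2, CYP3, CYP4, mitochondrial, from the top) in the 13 libraries (columns). Colour is log2(CPM + 0.05) minus the mean of the gene over libraries, limited to ±2.5, and stars mark the 4 Osiris-high libraries. The first column, wildtype replicate 1, holds the most dark red cells of the CYP3 clan, and *Cyp304a1*, *Cyp18a1*, *Cyp301a1* and *Cyp49a1* are red in *roX1* mutant replicates 1 and 2.

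Among the genes with the widest range, some followed the Osiris genes. *Cyp304a1*, of the CYP2 clan, had 12.5 and 10.2 CPM in *roX1* mutant replicates 1 and 2 but 0.32 and 0.20 in replicates 3 and 4. Wildtype replicate 1 had 3.11 CPM and the other wildtype libraries 0.36 and 0.31, and *roX2* mutant replicate 4 had 1.80 against 0.72 and 0.89. *Cyp301a1*, a gene of the mitochondrial clan known for its part in cuticle formation, went the same way: it had 60.7 and 33.8 CPM in those *roX1* mutant libraries, 11.9 in *roX2* mutant replicate 4 and 10.6 in replicate 1 of wildtype, and 5.18 to 6.66 in the other 9. All 4 Osiris-high libraries were thus above the other libraries of their genotype for both genes. *Cyp18a1*, the X-linked enzyme that inactivates the moulting hormone, had 111 and 106 CPM in *roX1* mutant replicates 1 and 2 against 35.3 and 26.5 in replicates 3 and 4, but in the *roX2* mutant the Osiris-high library was the lowest, with 45.2 against 56.9 and 66.0. None of the 3 genes passed against wildtype in any mutant, and *Cyp304a1* passed only as lower in the *roX1 roX2* than in the *roX1* mutant (log2 difference -4.91, adjusted p = 0.0435), a comparison in which only one side has Osiris-high libraries. That call was lost under 10 of 23 alternatives (adjusted p of 0.0513 to 0.561, the highest in the libraries with low Osiris levels). The Osiris sum was 7989 and 7938 CPM in the first pair of *roX1* mutant libraries, 1550 CPM for wildtype replicate 1 and 891 CPM for replicate 4 of the *roX2* mutant, and its part in these levels was not tested.

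Others were high in the whole *roX1* mutant. *Cyp6g1*, best known for resistance to DDT, had 20.3, 18.7, 36.8 and 26.0 CPM in the *roX1* mutant and 14.9, 1.31 and 2.05 in wildtype. The *roX2* mutant had 6.34, 3.76 and 4.52 CPM and the *roX1 roX2* mutant 3.32, 1.38 and 2.71. All *roX1* mutant libraries were above all others, yet with wildtype replicate 1 far above the other wildtype libraries the log2 fold change of 2.06 ± 0.72 did not pass (adjusted p = 0.181), while the *roX1 roX2* mutant was lower than the *roX1* mutant (log2 difference -3.36, adjusted p = 0.0142). *Cyp309a1* had 2.5, 3.56, 12.5 and 7.53 CPM in the *roX1* mutant against 0.34 to 1.38 in all other libraries, with a log2 fold change of 2.76 ± 0.62 against wildtype (adjusted p = 0.0567). It was higher in the *roX1* than in the *roX2* mutant (log2 difference 3.87, adjusted p = 0.0153). *Cyp312a1* had a wide range on the log scale because of a low value, 0.15 CPM in *roX1* mutant replicate 3, against 0.52 to 1.72 in the other 12 libraries.

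**Figure D5:**
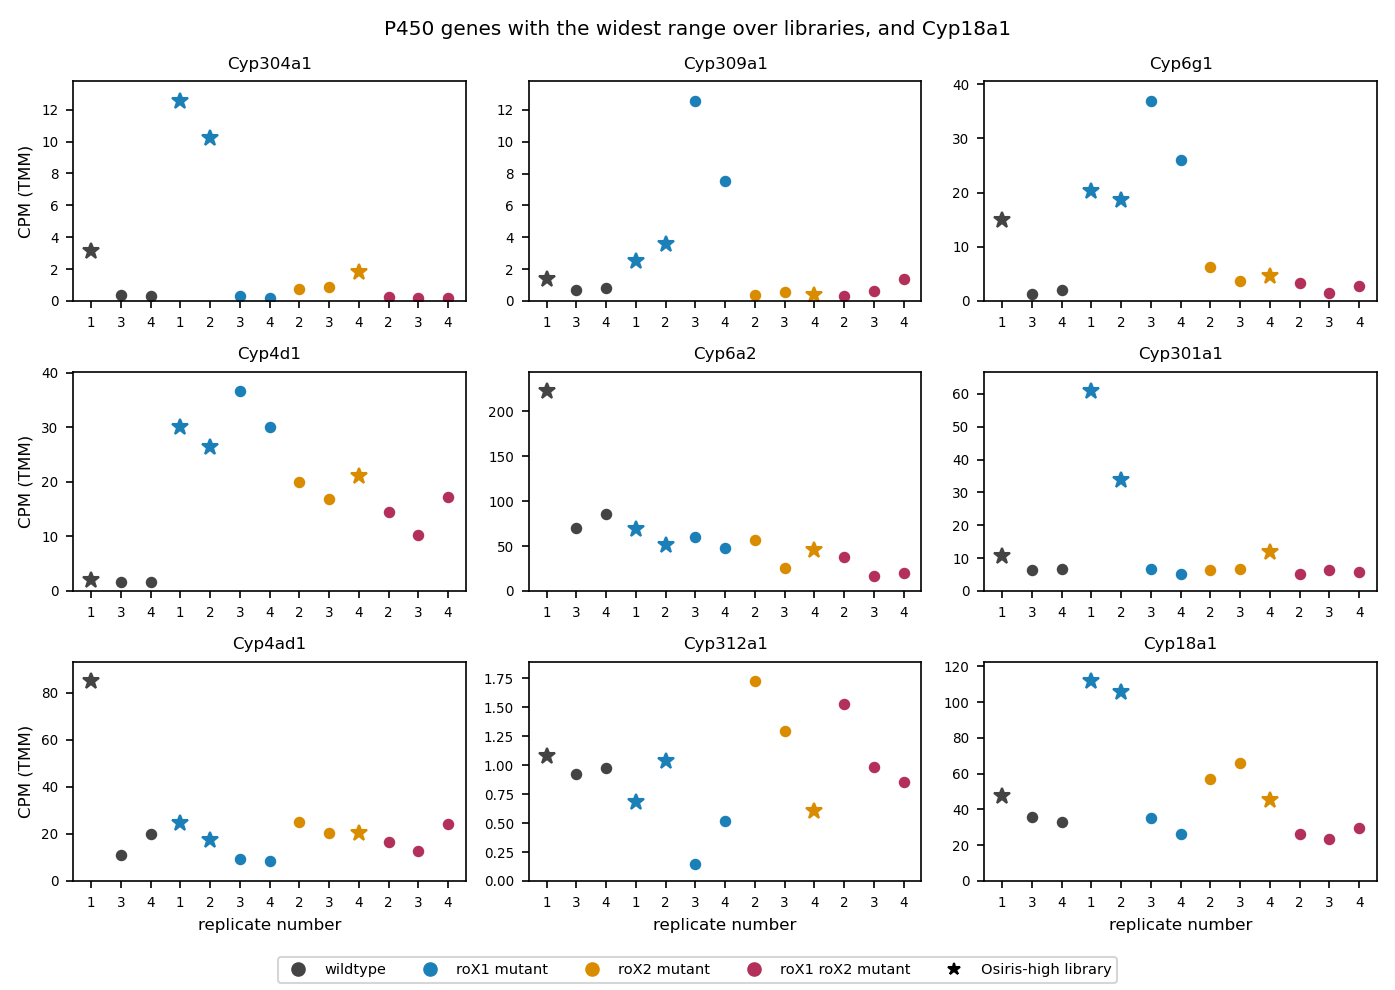
CPM in each library (replicate numbers on the horizontal axis, colour by genotype) of the 8 P450 genes with the widest range over libraries and of *Cyp18a1*. Stars are the 4 Osiris-high libraries. *Cyp304a1* and *Cyp301a1* are highest in starred libraries of the *roX1* mutant, *Cyp6a2* and *Cyp4ad1* in wildtype replicate 1, and *Cyp6g1* and *Cyp309a1* in *roX1* mutant replicate 3.

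A fit of only the 9 libraries with low Osiris levels, added after the data were seen, gave more calls in the *roX1* mutant. With 2 libraries against 2, 12 P450 genes were higher than in wildtype and 2 lower, beside 2.65% and 1.22% of all genes. *Cyp6g1* then rose by 4.20 ± 0.45 (adjusted p = 0.00235), *Cyp309a1* by 3.70 ± 0.59 (adjusted p = 0.0122) and *Cyp6d5* by 1.5 ± 0.20 (adjusted p = 0.00650), beside *Cyp4d1*, *Cyp4p2*, *Cyp4e1*, *Cyp4e3* and *Cyp28a5*. In the *roX2* mutant 2 were higher and none lower, beside 0.301% and 0.708%, and in the *roX1 roX2* mutant 8 and 3, beside 2.4% and 7.25%. Of the calls made with all libraries, 6, 2 and 8 were among these.

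Of the members named for a known role, *Cyp6a8* and *Cyp303a1* passed in no comparison with wildtype. *Cyp6a8* varied between libraries, with 80.1, 54.2 and 60.7 CPM in wildtype and 66.5, 19.1 and 44.6 in the *roX2* mutant. The *roX1* mutant had 47.6, 46.1, 70.8 and 57.5 CPM. Wildtype overlapped with every mutant except the *roX1 roX2* mutant, at 51.0, 35 and 48.8. *Cyp303a1*, a gene of the CYP2 clan needed for mechanosensory bristles, stayed between 1.16 and 2.21 CPM in all libraries. An overlapping gene on the other strand covers 33.0% of its exon bases.

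On the chromosomes the family is clustered: 45 of the 84 genes lie within 10 kb of another member, in 16 clusters, the largest with 8 genes on 2R. Called genes sat beside members that did not pass. In that cluster *Cyp6a17*, *Cyp6a23* and *Cyp6a9* lie between 14873953 and 14881372 on 2R. Their log2 fold changes in the *roX1 roX2* mutant were 0.43, -1.06 and -0.22, of which only the fall of *Cyp6a23* passed. In the *roX1* mutant they were -0.27, -0.73 and -0.76, and only that of *Cyp6a9* passed. *Cyp6a9* shares 20.2% of its exon bases with *Cyp6a19* on the other strand, which had 107 counts in all.

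Genes that work with the P450 enzymes were compared from lists written with earlier results known. The 6 redox partners, among them P450 reductase (*Cpr*, 99.2 ± 8.1 TPM in wildtype), adrenodoxin reductase (*dare*, 19.2 ± 1.3) and cytochrome b5 (*Cyt-b5*, 436 ± 54), passed in no mutant, and their median log2 fold change was 0.36 (*roX1*), -0.05 (*roX2*) and -0.19 (*roX1 roX2*). Of 5 ecdysone-synthesis P450 genes under other symbols, 1 (20%, beside 0.751% of all genes) rose in the *roX1* mutant. This was *sad* (1.32 to 2.86 TPM on average, log2 fold change 1.22 ± 0.26, adjusted p = 0.0429). *shd*, which makes the active hormone, stood at 29.2 ± 2.7 TPM in wildtype and 18.4 ± 3.1 in the *roX1* mutant (adjusted p = 0.0838). Of 35 glutathione S-transferase genes, which conjugate products of P450 enzymes, 3 (8.57%, beside 0.751% of all genes) rose in the *roX1* mutant. They were led by *GstD6*, from 0.471 ± 0.547 to 9.05 ± 2.64 TPM (log2 fold change 4.28, adjusted p = 0.0221). In the *roX1 roX2* mutant 1 fell (2.86%, beside 5.67% of all genes), the X-linked *GstT3* (log2 fold change -1.01, adjusted p = 0.0411). The medians of the 35 genes were 0.55, -0.02 and -0.43. Of 33 UDP-glycosyltransferase genes 1 passed, *Ugt35B1*, which fell by 4.26 on the log2 scale in the *roX2* mutant (1.96 to 0.0880 TPM, adjusted p = 9.76e-05). This was 3.03%, beside 0.186% of all genes, and the medians were -0.09, -0.59 and -0.56. Of 10 regulators, which include the xenobiotic receptor *Hr96* and the stress factor *cnc*, only *Met*, an X-linked juvenile hormone receptor, passed. It fell by 0.73 ± 0.16 in the *roX1 roX2* mutant (adjusted p = 0.0180), where 27.0% of all X-linked genes fell.

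Of the cyclophilins that share the symbol, the X-linked *Cyp1* fell by 1.48 ± 0.24 in the *roX1 roX2* mutant (adjusted p = 0.00566), from 472 ± 59 TPM in wildtype to 195 ± 1.9, and *Cyp40* did not pass in any mutant.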

How the data were processed

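The authors mapped paired-end reads with STAR 2.5.1b to release 6 of the genome, counted them with htseq-count (HTSeq 0.6.1, default settings) and deposited raw counts per gene. That default counts by strand, whereas the library kit does not mark it, yet reads assigned to no feature made up only 0.898% to 2.53% of each file. Whether strand was used was not settled, and overlapping genes on opposite strands cannot be told apart. Summary lines of the counter held 10.3% to 23.8% of each file and were left out. The test ran on genes with a sum of at least 20 counts, in edgeR 4.0.16 (R 4.3.3; TMM, quasi-likelihood test, 4 genotypes in one model). P-values were adjusted by the Benjamini-Hochberg method over all 13975 genes within each comparison, with a threshold of 0.05, and "rose" or "fell" means called at it. CPM of P450 genes are TMM-normalized, CPM of marker genes and *roX* RNAs are scaled by counts on genes, and TPM use annotated exon bases (BDGP6.54; 247 identifiers had no match). Fold changes are not centred. Named genes were the 10 with the highest wildtype TPM, all called genes, X-linked genes that averaged 50 counts or more, the 8 with the widest range of log2 CPM (prior count 2) at that depth, and 9 of known role. Members and lists were chosen with earlier results of these data known. Same-numbered wildtype and *roX1* mutant libraries deviated together (correlations of 0.424 to 0.587 over all genes tested). So did differently numbered ones (wildtype replicate 1 with *roX1* mutant replicate 2, 0.573, and 4 with 3, 0.482), and other same-numbered pairs ranged from -0.489 to 0.283. What a number marks is not given in the sources used here, so the replicate block is an alternative only. DESeq2 1.42.0, other scalings and filters, and leaving out each library were further alternatives. The fit was tested on simulated counts. Other steps used python 3.11.15 and matplotlib 3.10.9.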

Additional observations from a re-analysis of the deposited data

Results flagged for a closer look

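In the *roX1* mutant, the only group of 4 libraries, *Cyp12d1-d* had 1.53 CPM in replicate 3 against 0.87 to 0.97 in the others, a gap of 0.844 of the range of the group; 35 such groups of values were examined, and chance marks about 1 in 20. For 5 P450 genes the change on losing *roX2* differed between larvae with and without *roX1* (edgeR, adjusted over all genes, where 3.01% were called). The log2 change from the *roX1* to the *roX1 roX2* mutant minus that from wildtype to the *roX2* mutant was -4.61 ± 0.28 for *Cyp4d1* (adjusted p = 3.0e-05), -2.36 ± 0.45 for *Cyp4e1* (0.0242), -1.25 ± 0.19 for *Cyp4p2* (0.00928), -0.83 ± 0.13 for *Cyp28a5* (0.00988) and 0.98 ± 0.17 for *Cyp6a9* (0.0150). In the first 4 the *roX2* mutant was above wildtype, while the *roX1 roX2* mutant was below the *roX1* mutant or, for *Cyp28a5*, above it by 0.14. The wildtype libraries enter each of these differences.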

How the results depend on the processing

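Calls in the *roX1*, *roX2* and *roX1 roX2* mutant numbered 8, 3 and 10. They were 19, 8 and 17 by DESeq2, 6, 2 and 6 with the replicate block, 4, 1 and 12 with only the genotypes compared, and 14, 2 and 11 in the 9 libraries with low Osiris levels. Leaving out 1 library gave 4 to 10, 2 to 4 and 4 to 12. Apart from the main fit, the share of all genes called is given above only for DESeq2 and the fit with low Osiris levels. Beside the results given above, the block took *Cyp4p2* in the *roX2* mutant (adjusted p = 0.106) and *Cyp9h1* in the *roX1 roX2* mutant (adjusted p = 0.125) above the threshold. Other scalings, filters and the side of the principal component as a term left each count within 1.5 times. The mean of the major autosome arms was 0.11, 0.14 and -0.03 in the 3 mutants. Centred on it, the X-linked medians were 0.53, 0.13 and -0.28, and the autosomal ones 0.0858, -0.23 and -0.17. With a mean of at least 10 counts the autosomal median in the *roX1* mutant was 0.14, and with low Osiris levels only it was 0.13. Those libraries gave X-linked medians of 0.52 (*roX2*) and 0.16 (*roX1 roX2*) and an autosomal one of 0.0089 (*roX1 roX2*), which the replicate block put at -0.0873. Leaving out 1 library gave X-linked medians of 0.38 to 0.86, 0.18 to 0.57 and -0.59 to 0.17, and autosomal ones of 0.13 to 0.29, -0.23 to 0.07 and -0.30 to 0.0181. The cause was not tested. The summed level and the order of the leading genes moved by less than the spread between libraries. Counts of at most 12 a library outside the *roX1 roX2* mutant limit the precision of *Cyp313a5*.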
